A study of Capra hircus with 6 samples.

Results

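The genes described here are the goat genes that the deposited annotation places in the Lysosome pathway. Of 16285 genes in the deposited tables, 121 carried the word Lysosome in the pathway description. Of these, 6 were left out by name, among them the genes whose names start with SLC, and are not analysed here, which left 115. The names of all 115 are also symbols of RefSeq genes of the goat assembly ARS1.2. They were divided by role into 13 cathepsins, 2 other proteases, 14 glycosidases, 8 genes of the sulfatase group, 11 other hydrolases and activator proteins, 19 membrane proteins, 10 subunits of the proton pump (V-ATPase), 31 genes of sorting receptors, mannose 6-phosphate tagging and coat proteins, and 7 members known only by a locus number.

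Lysosomes are acidic compartments in which proteins, glycans and lipids are broken down. The V-ATPase pumps protons across the lysosomal membrane, most soluble enzymes are tagged with mannose 6-phosphate in the Golgi and carried by receptors in clathrin-coated vesicles, and abundant membrane glycoproteins such as LAMP1 and LAMP2 line the compartment. Many of these genes are known targets of the transcription factors TFEB and TFE3, and in stromal cells secreted cathepsins also take part in matrix turnover.

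The RNA came from mesenchymal stem cells of goat (Capra hircus) adipose tissue, which are stromal cells that can be induced to form adipocytes. The first group was 3 libraries labelled as overexpressing YAP, and the second was 3 control libraries labelled WT. By their labels, all 6 libraries came from cells treated for adipogenic differentiation. The sample labels name YAP, whereas the design text of the series names a TAZ line, and they give no vector (also not whether the control cells carried an empty one), clone, passage, age or time of differentiation.

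The values were FPKM, fragments scaled to the length of the gene model and to the counted fragments of the same library, held in a separate table for each group. Whole reads recovered from them implied 32593380 to 37131015 counted fragments per library labelled YAP and 33871397 to 34967990 per control library. YAP1, the gene named in the labels, had 28.4, 25.6 and 28.2 FPKM in the libraries labelled YAP, against 25.8, 27.0 and 28.9 FPKM in the control libraries (log2 change 0.0076, SE 0.081, adjusted p = 0.95; exact two-sided permutation p = 1, where 3 against 3 libraries allow no p below 0.1), and the groups overlapped. WWTR1, which encodes TAZ, had 21.9, 19.2 and 23.1 FPKM in the libraries labelled YAP, against 30.2, 29.9 and 35.9 FPKM in the control libraries, and it fell (log2 change -0.56, SE 0.098, adjusted p = 0.0013; exact permutation p = 0.1). Because YAP1 was not higher in that group, directions below are those of the labelled libraries. Stromal genes were abundant, with COL1A1 at 5889.6 ± 166 FPKM in the libraries labelled YAP and 3674 ± 73.9 FPKM in the control libraries (mean ± SD, n = 3 per group, here and below). Of 8 stromal markers 4 rose, COL1A1 among them, and 2 fell. The falls were ENG, at 80.8 ± 4.98 FPKM in the libraries labelled YAP and 150 ± 14.8 FPKM in the control libraries, and NT5E. NT5E had 127 ± 6.38 FPKM in the libraries labelled YAP and 170 ± 10.9 FPKM in the control libraries. The summed level of the 8 markers was 21154 ± 262 FPKM in the libraries labelled YAP and 19879.9 ± 605 FPKM in the control libraries. The summed level of 7 leukocyte and macrophage markers was 0.0270 to 0.253 FPKM in the libraries labelled YAP and 0.0514 to 0.113 FPKM in the control libraries, with AIF1 at 0 throughout. The summed level of 5 adipocyte markers was 0.269 to 0.511 FPKM in the libraries labelled YAP and 0.256 to 0.354 FPKM in the control libraries. Since no label ties the replicates of a group to separate cultures or goats, each p-value below measures the spread between these samples alone, and that spread may be technical.

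Lysosomal transcripts were abundant in these cells. The 115 genes together held 1.63% to 1.68% of all FPKM in the libraries labelled YAP and 1.67% to 1.82% in the control libraries. The 10 most abundant members, CTSB, PSAP, CD63, GM2A, CTSK, LAPTM4A, CTSH, LAMP1, CTSD and ATP6V0D1, made up 61.1% to 61.7% of that sum in the libraries labelled YAP and 62.5% to 62.7% in the control libraries. CTSB, a cysteine protease, was the most abundant of the 115 in both groups, at 1060.0 ± 22.5 FPKM in the libraries labelled YAP and 1177 ± 62.9 FPKM in the control libraries. PSAP, the precursor of the saposins that help enzymes reach lipids, had 732 ± 6.13 FPKM in the libraries labelled YAP and 673 ± 29.2 FPKM in the control libraries, and the tetraspanin gene CD63 had 619 ± 64.5 FPKM in the libraries labelled YAP and 717 ± 39.3 FPKM in the control libraries. At the other end, 11 members averaged under 1 FPKM over the 6 libraries, among them LAMP3, a dendritic cell membrane protein, with 0 to 1 reads per library, and the coat subunit genes AP1M2 and AP3B2 with 0 to 1 reads each.

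Lysosome genes differed between the groups about as often as other genes did. A level of 1 FPKM or more in 3 or more libraries was reached by 104 members, which were tested, and not by 11, and 1 tested member, CTSS, passed that filter only through the libraries labelled YAP. CTSS could enter the test only by being higher there, so its place among the higher members below carries no weight. By limma on log2(FPKM + 1), with p-values adjusted over all 10761 tested genes, 9 members, CTSS among them, were higher and 23 were lower in the libraries labelled YAP, at an adjusted p under 0.05. That is 30.8% of the tested members, beside 35.9% of all tested genes, of which 12.9% were higher and 23% were lower. The median log2 change was -0.074 over the tested members and -0.095 over all tested genes. The split between directions moved with the scaling: after median-of-ratios scaling, 16 members were higher and 13 lower, beside 15.8% higher and 14% lower (29.8% in either direction) of all tested genes, and the members' median log2 change was 0.0081. After quantile normalization 17 members were higher and 15 lower, beside 14.8% higher and 18.1% lower (33% in either direction) of all tested genes. Of the 32 members called, 22 were also called after median-of-ratios scaling, including all 9 higher ones, and none changed sign. Leaving out YAP replicate 1 lowered the members' count to 17, and that of all genes to 2290.

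**Figure D1:**
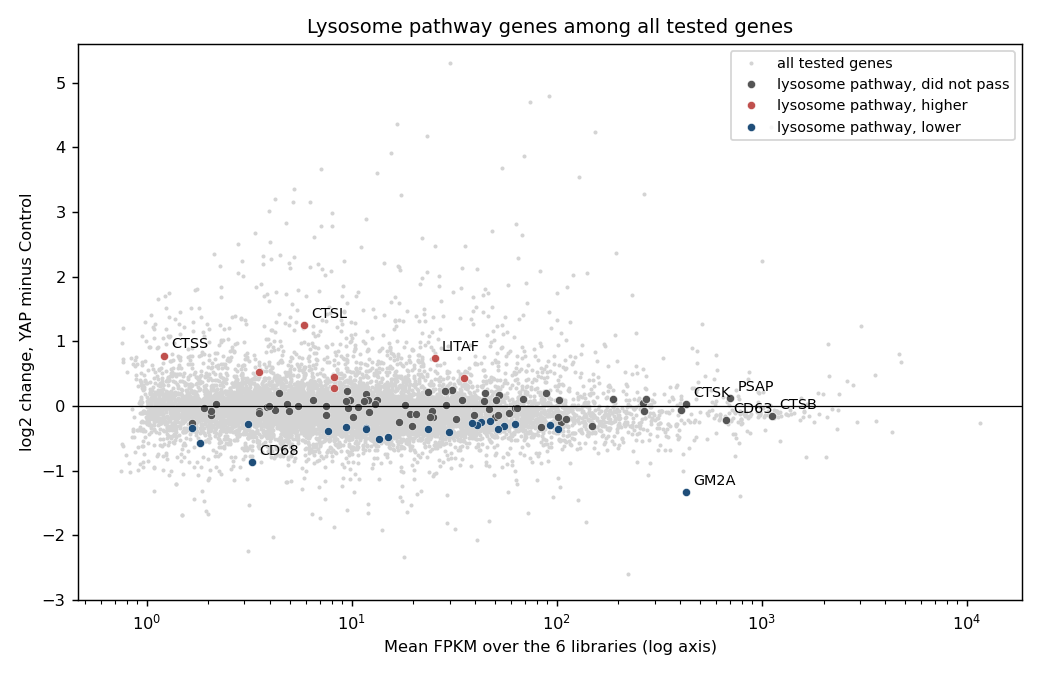
Log2 change (libraries labelled YAP minus control libraries, log2(FPKM + 1) scale) against mean FPKM over the 6 libraries on a log axis, with each tested gene as a grey dot and 100 tested lysosome pathway genes in colour. Most members lie near the centre of the grey cloud, and GM2A stands lowest among them at a log2 change of -1.33.

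Most changes were small. Of the 32 called members, 5 were higher by at least 1.5-fold and 3 fell by at least 1.5-fold in mean FPKM, and 4 (GM2A, CTSL, CTSS and CD68) differed by at least 2-fold. Libraries labelled YAP and control libraries held separate ranges in all 32, and in 48 of the 104 tested members in all, beside 48.3% of all tested genes. CTSS is in the counts of higher members, of 2-fold differences and of separate ranges. It carries no weight there, because it passed the filter only through the libraries labelled YAP. In these bulk libraries, fewer cells that express a gene and less of its RNA per cell cannot be told apart.

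**Figure D2:**
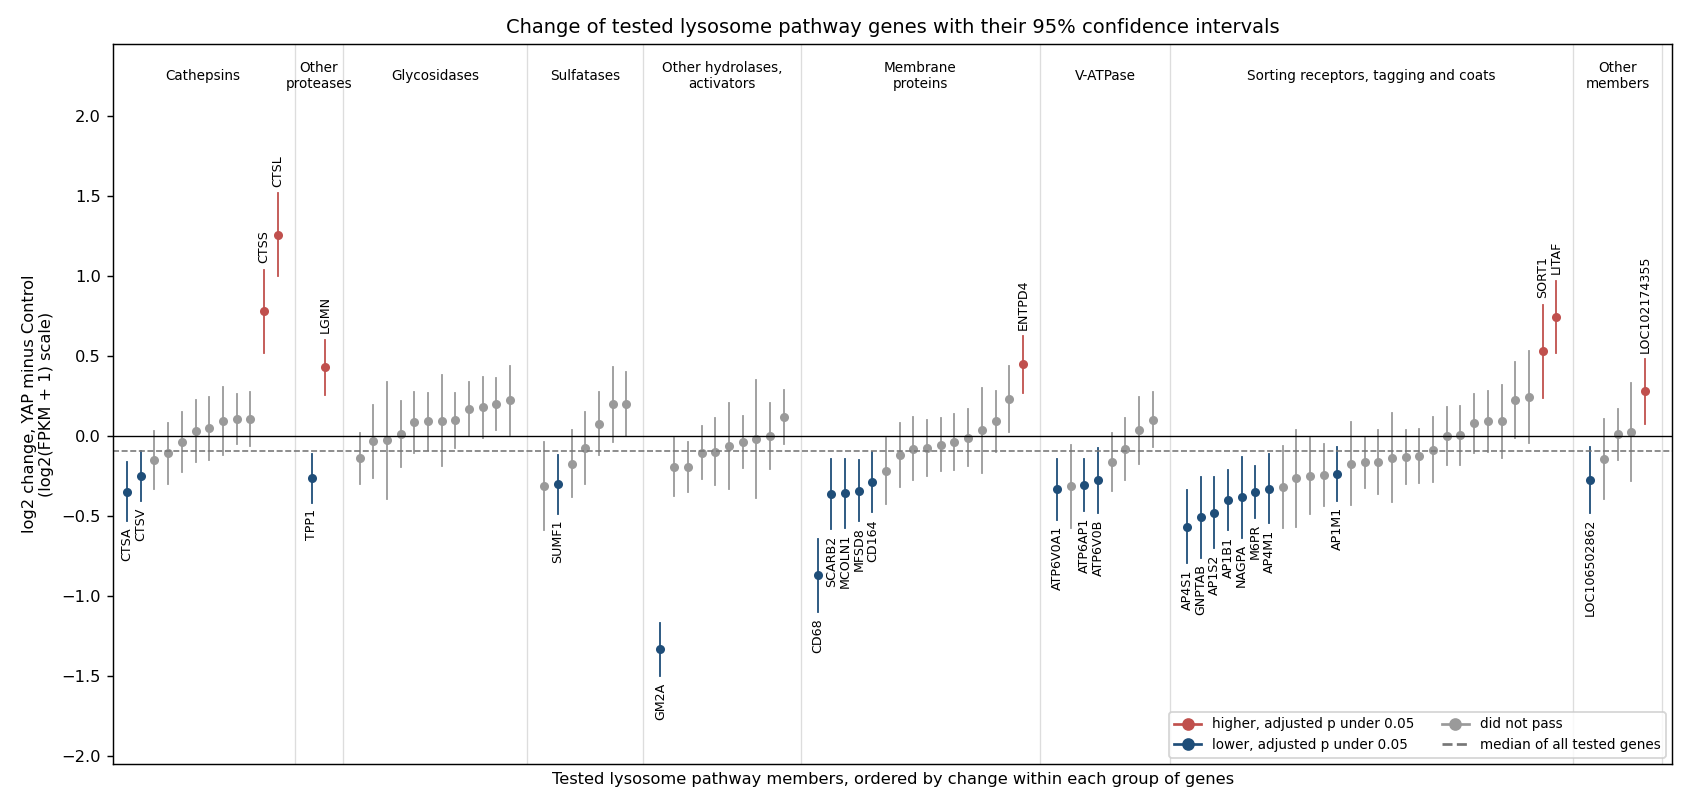
Log2 change (libraries labelled YAP minus control libraries) of 100 tested members with their 95% confidence intervals from limma, grouped by role and ordered within each group; the dashed line is the median of all tested genes, -0.095. In the V-ATPase group 3 falls and 0 rises passed on this scale.

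The largest fitted change among the 104 tested members, on the log2(FPKM + 1) scale that shrinks changes of low genes, was the fall of GM2A, which encodes the GM2 activator protein. This protein lifts GM2 ganglioside out of the membrane so that it can be cut by a lysosomal enzyme to which HEXA contributes a subunit. GM2A had 253, 233 and 243 FPKM in the libraries labelled YAP, against 611, 589 and 639 FPKM in the control libraries, a 2.52-fold lower mean (log2 change -1.33, SE 0.077, adjusted p = 2.3e-07). Every library labelled YAP was below every control library. By the ratio of means, the low genes CTSL and CTSS differed by more than GM2A. By mean FPKM, GM2A ranked 9 of the 115 members in the libraries labelled YAP and 4 in the control libraries. HEXA had 50.8, 49.4 and 47.8 FPKM in the libraries labelled YAP, against 56.4, 53.3 and 53.5 FPKM in the control libraries, and did not pass (log2 change -0.14, SE 0.072, adjusted p = 0.16), although its groups did not overlap either. The ratio of GM2A to HEXA was 4.98, 4.72 and 5.07 in the libraries labelled YAP, against 10.8, 11.1 and 11.9 in the control libraries. This ratio was not tested.

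Cathepsins, the main lysosomal proteases, held CTSL as a rise and CTSA and CTSV as falls, and the abundant ones did not pass. Of 12 tested cathepsins, 2 were called higher, 1 of them CTSS, and 2 fell, which is 33.3% beside 35.9% of all tested genes, with a median log2 change of 0.041. CTSL, a cysteine endopeptidase, had 8.87, 7.86 and 9.22 FPKM in the libraries labelled YAP, against 3.43, 2.37 and 3.38 FPKM in the control libraries and rose by 2.83-fold (log2 change 1.26, SE 0.12, adjusted p = 1.3e-05). Its lowest value in the libraries labelled YAP was above its highest control value. The row named CTSV, to which the authors' symbol column gives CTSL, was the more abundant of the pair. It had 39.2, 38.8 and 38.4 FPKM in the libraries labelled YAP, against 47.0, 44.7 and 47.3 FPKM in the control libraries and fell (log2 change -0.25, SE 0.071, adjusted p = 0.018), without overlap, though median-of-ratios scaling ended the call (adjusted p = 0.10). CTSS, a cysteine protease best known from antigen-presenting cells, was low and is given as a description only, because of how it passed the filter. It had 1.47, 1.92 and 1.99 FPKM in the libraries labelled YAP, against 0.436, 0.866 and 0.587 FPKM in the control libraries, a 2.85-fold higher mean, on 27 to 131 reads per library, and the groups did not overlap. Markers of leukocytes were at or near 0 in the same libraries, as given above. CTSS lies next to CTSK among the protein-coding genes of the RefSeq table, and CTSK, the collagen-degrading cathepsin of osteoclasts and fibroblasts, had 437, 418 and 432 FPKM in the libraries labelled YAP, against 439.5, 373 and 449 FPKM in the control libraries and did not pass (log2 change 0.034, SE 0.088, adjusted p = 0.79). Of the osteoclast markers, OSCAR rose (log2 change 0.66, SE 0.12, adjusted p = 0.0013), whereas CALCR was at 0 in 5 of 6 libraries and DCSTAMP likewise in 5 of 6. The part of such cells in these levels was not tested. CTSA, a carboxypeptidase that also protects beta-galactosidase and neuraminidase, fell, with 86.2, 96.7 and 84.4 FPKM in the libraries labelled YAP, against 119.9, 115 and 106 FPKM in the control libraries (log2 change -0.35, SE 0.083, adjusted p = 0.0077). The call of CTSA was lost without YAP replicate 1 (adjusted p = 0.052). The call of CTSV was lost without YAP replicates 1 or 3 (adjusted p = 0.066 to 0.087). CTSB had 1074, 1071 and 1034 FPKM in the libraries labelled YAP, against 1248, 1152 and 1129.7 FPKM in the control libraries (log2 change -0.15, SE 0.081, adjusted p = 0.18). CTSD, the main aspartic protease, had 263, 282 and 258 FPKM in the libraries labelled YAP, against 290.4, 253 and 236 FPKM in the control libraries (log2 change 0.048, SE 0.090, adjusted p = 0.70). CTSB values did not overlap between the groups and CTSD values did, but neither gene passed the test. The 8 tested cathepsins that did not pass had log2 changes from -0.15 (CTSB) to 0.11 (CTSH). CTSW was not tested, with 0 to 11 reads per library. The summed level of all 13 cathepsins was 2419 ± 62.0 FPKM in the libraries labelled YAP and 2514 ± 126 FPKM in the control libraries. Without YAP replicate 1 the only cathepsin called was CTSL, and without YAP replicate 3 the calls numbered 2, with CTSV lost and CTSS not tested.

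The proteases outside the cathepsin family moved in opposite directions. LGMN, the asparaginyl endopeptidase legumain that processes cathepsins, had 40.5, 42.6 and 39.2 FPKM in the libraries labelled YAP, against 29.1, 32.1 and 28.8 FPKM in the control libraries and rose (log2 change 0.43, SE 0.078, adjusted p = 0.0015). TPP1, a tripeptidyl peptidase, had 34.6, 35.1 and 35.0 FPKM in the libraries labelled YAP, against 42.1, 41.6 and 42.5 FPKM in the control libraries and fell (log2 change -0.26, SE 0.070, adjusted p = 0.013). Neither gene overlapped between the groups, and TPP1 did not pass once FPKM were scaled by median of ratios (adjusted p = 0.076). The call of TPP1 was lost without YAP replicate 1 (adjusted p = 0.085).

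Glycosidases, which cut sugars from glycans and glycolipids, held 1 rise and 1 fall among 14 tested genes in the deposited FPKM (14.3% called, beside 35.9% of all tested genes). Their median log2 change was 0.095, with 10 of the 14 above 0. The count depended on scaling. With median-of-ratios scaling there were 5 rises and 1 fall, beside 15.8% higher and 14% lower of all tested genes. The added ones were GLB1, the beta-galactosidase, GUSB, the beta-glucuronidase, GAA, the acid alpha-glucosidase, and NAGLU, an alpha-N-acetylglucosaminidase. In the deposited FPKM, GLB1 averaged 95.1 ± 3.88 FPKM in the libraries labelled YAP and 82.6 ± 3.98 FPKM in the control libraries (adjusted p = 0.057, and 0.014 after that scaling). GUSB averaged 55.5 ± 1.19 FPKM in the libraries labelled YAP and 49.3 ± 3.51 FPKM in the control libraries (adjusted p = 0.11, and 0.027 scaled). GAA averaged 12.5 ± 0.508 FPKM in the libraries labelled YAP and 10.9 ± 0.806 FPKM in the control libraries (adjusted p = 0.13, and 0.036 scaled). NAGLU averaged 25.3 ± 2.10 FPKM in the libraries labelled YAP and 21.6 ± 2.41 FPKM in the control libraries (adjusted p = 0.098, and 0.039 scaled). These 3 and NAGLU thus did not pass in the main fit. GLB1 and GUSB were called in 4 of 13 alternative fits, and GAA and NAGLU in 3. Quantile normalization also gave 5 rises and 1 fall in the group, beside 14.8% higher and 18.1% lower of all tested genes. The 12 tested glycosidases that did not pass had log2 changes from -0.14 (HEXA) to 0.22 (NAGLU). LOC102174355, described as a second beta-glucuronidase and the neighbour of GUSB in the RefSeq table, rose in the deposited FPKM, with 9.57, 8.58 and 9.03 FPKM in the libraries labelled YAP, against 8.11, 6.97 and 6.83 FPKM in the control libraries (log2 change 0.28, SE 0.092, adjusted p = 0.035), and kept its call in 8 of 13 alternative fits. The call of LOC102174355 was lost without YAP replicates 1 or 3 or control replicates 2 or 3 (adjusted p = 0.082 to 0.17). The summed level of the 14 glycosidases was 547, 550.2 and 540.3 FPKM in the libraries labelled YAP, against 510.0, 469 and 487 FPKM in the control libraries, and the groups did not overlap.

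In the sulfatase group, 0 of 8 tested genes rose and 1 fell (12.5% called, beside 35.9% of all tested genes). The gene that fell was SUMF1, which encodes the enzyme in the endoplasmic reticulum that activates sulfatases. SUMF1 had 35.8, 39.0 and 34.7 FPKM in the libraries labelled YAP, against 49.0, 42.4 and 44.3 FPKM in the control libraries (log2 change -0.30, SE 0.084, adjusted p = 0.017), without overlap, and did not pass after median-of-ratios scaling (adjusted p = 0.073). The call of SUMF1 was lost without YAP replicates 1 or 3 or control replicate 1 (adjusted p = 0.053 to 0.082). Values of replicate 2 were the lowest in both groups in 28.8% of tested members and 25.2% of all tested genes, and the part of this pattern in the results was not tested. After median-of-ratios scaling 1 gene of the group rose and 0 fell, beside 15.8% higher and 14% lower of all tested genes. That gene was ARSA, which desulfates sulfatide and had 48.0 ± 4.59 FPKM against 41.5 ± 3.02 FPKM (libraries labelled YAP against control; adjusted p = 0.10, and 0.040 after median-of-ratios scaling). The 7 tested genes of the group that did not pass had log2 changes from -0.31 (IDS) to 0.20 (ARSA). Calls in this group numbered 0 without YAP replicate 1 or control replicate 1, and 2 without control replicate 2.

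Other hydrolases and activator proteins held GM2A as their single call among 10 tested genes (10% called, beside 35.9% of all tested genes). A log2 change below 0 was found in 9 of the 10, and in 6851 of all 10761 tested genes. The median log2 change of the group was -0.079, but median-of-ratios scaling moved it to -0.0050. PSAP had 738, 729.7 and 727 FPKM in the libraries labelled YAP, against 706, 650.0 and 663 FPKM in the control libraries (log2 change 0.12, SE 0.077, adjusted p = 0.24), so that the groups did not overlap but the difference did not pass. The ratio of GM2A to PSAP, activators of different lipid-cleaving enzymes, was 0.343, 0.319 and 0.334 in the libraries labelled YAP, against 0.865, 0.906 and 0.965 in the control libraries. The 9 tested hydrolases and activators that did not pass had log2 changes from -0.19 (DNASE2) to 0.12 (PSAP). ACP5, the tartrate-resistant acid phosphatase, did not reach the filter, at 0.689, 0.657 and 0.535 FPKM in the libraries labelled YAP, against 1.69, 1.10 and 0.619 FPKM in the control libraries.

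**Figure D3:**
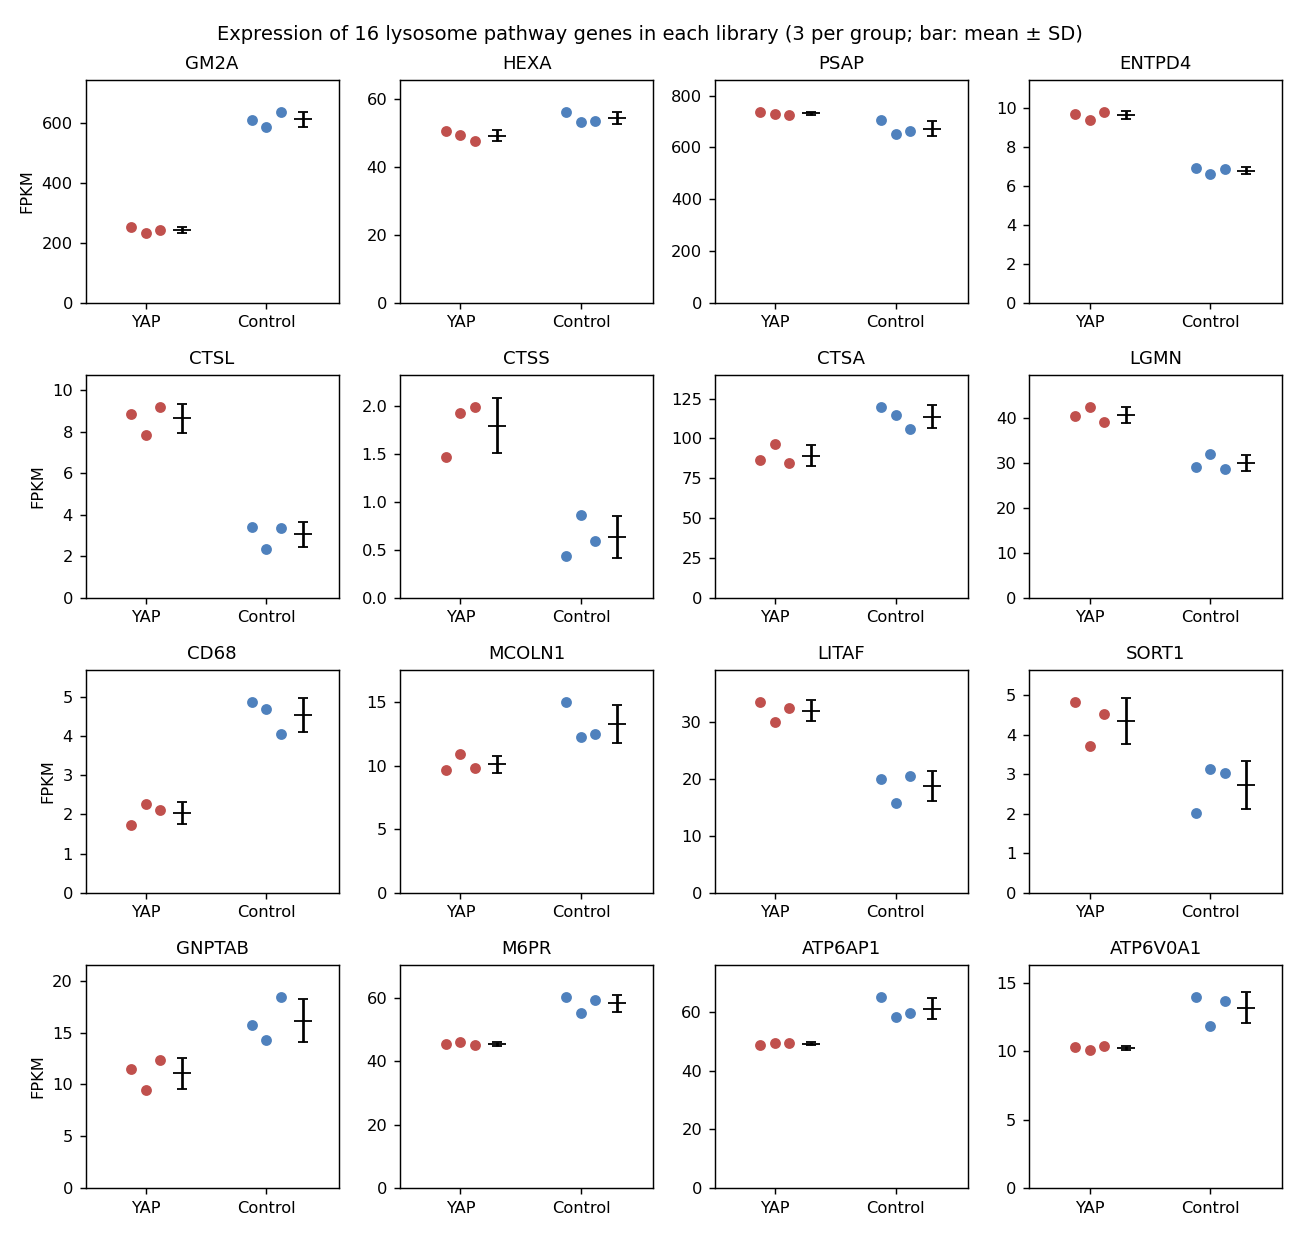
FPKM of 16 lysosome pathway genes in each library, with the libraries labelled YAP at the left of each panel and the control libraries at the right; points are libraries and the black bar is the mean ± SD of 3. GM2A, HEXA, CTSA, CD68, MCOLN1, GNPTAB, M6PR, ATP6AP1 and ATP6V0A1 are lower, and PSAP, ENTPD4, CTSL, CTSS, LGMN, LITAF and SORT1 higher, in every library labelled YAP than in every control library. The 16 genes were picked for display, and CTSS passed the filter only through the libraries labelled YAP. Groups were separate in 48 of all 104 tested members, beside 48.3% of all tested genes. LAMP1, LAMP2, CTSD and CTSK, which are not shown, overlapped.

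Of the membrane proteins, CD68 and 4 others fell and ENTPD4 rose, while LAMP1 and LAMP2 did not pass. That is 1 rise and 5 falls among 16 tested genes (37.5% called, near the 35.9% of all tested genes). Median-of-ratios scaling gave 2 rises and 3 falls, beside 15.8% higher and 14% lower of all tested genes. CD68, a glycoprotein of late endosomes and lysosomes that is used as a macrophage marker, had 1.72, 2.26 and 2.11 FPKM in the libraries labelled YAP, against 4.87, 4.68 and 4.04 FPKM in the control libraries, a 2.23-fold lower mean (log2 change -0.87, SE 0.10, adjusted p = 8.3e-05). Its groups did not overlap, and it rested on 108 to 289 reads per library. The other 7 markers of leukocytes and macrophages were at or near 0 in both groups, with the sums given above. MCOLN1, the lysosomal calcium release channel, had 9.65, 10.9 and 9.77 FPKM in the libraries labelled YAP, against 15.0, 12.3 and 12.5 FPKM in the control libraries and fell (log2 change -0.36, SE 0.097, adjusted p = 0.014). The call of MCOLN1 was lost without YAP replicate 1 (adjusted p = 0.075). MFSD8, a membrane protein of the transporter type whose loss causes a form of neuronal ceroid lipofuscinosis, had 1.40, 1.34 and 1.30 FPKM in the libraries labelled YAP, against 1.85, 2.13 and 1.96 FPKM in the control libraries and fell (log2 change -0.34, SE 0.087, adjusted p = 0.011). SCARB2, a lysosomal membrane protein that also serves as a sorting receptor, had 21.6, 18.8 and 20.9 FPKM in the libraries labelled YAP, against 29.7, 23.2 and 27.1 FPKM in the control libraries and fell (log2 change -0.36, SE 0.10, adjusted p = 0.016), although its adjusted p was 0.051 after median-of-ratios scaling. The sialomucin gene CD164 also fell (log2 change -0.29, SE 0.086, adjusted p = 0.024), with adjusted p = 0.10 after that scaling. The call of SCARB2 was lost without control replicate 1 (adjusted p = 0.063). The call of CD164 was lost without YAP replicates 1 or 2 or control replicate 3 (adjusted p = 0.062 to 0.10). Falls in the group numbered 3 without YAP replicate 1. ENTPD4, a nucleoside diphosphatase of the Golgi and lysosomal membranes, was the rise, with 9.66, 9.37 and 9.79 FPKM in the libraries labelled YAP, against 6.88, 6.59 and 6.84 FPKM in the control libraries (log2 change 0.45, SE 0.080, adjusted p = 0.0014). LAMP1 had 249, 276 and 249.8 FPKM in the libraries labelled YAP, against 281, 278 and 257 FPKM in the control libraries (log2 change -0.075, SE 0.079, adjusted p = 0.49). LAMP2 had 46.4, 44.9 and 47.5 FPKM in the libraries labelled YAP, against 45.9, 45.1 and 51.7 FPKM in the control libraries (log2 change -0.038, SE 0.079, adjusted p = 0.73). Values of both LAMP genes overlapped between the groups, the 95% confidence interval of the log2 change was -0.25 to 0.10 for LAMP1 and -0.21 to 0.14 for LAMP2, and the sign of both turned positive after median-of-ratios scaling. CD63, the most abundant of the group, had 616, 685 and 556 FPKM in the libraries labelled YAP, against 718, 757 and 678 FPKM in the control libraries (log2 change -0.22, SE 0.094, adjusted p = 0.093). CLN3, a protein of the lysosomal membrane, had 10.4 ± 0.961 FPKM against 8.68 ± 0.587 FPKM (libraries labelled YAP against control; adjusted p = 0.075, and 0.028 after that scaling). The 10 tested membrane proteins that did not pass had log2 changes from -0.22 (CD63) to 0.23 (CLN3). LAMP3, ABCB9 and LAPTM4B were not tested in the main fit. With a lower filter of 0.1 FPKM the group held 1 rise and 7 falls, beside 31.8% of all members tested that way. With no filter it also held 1 rise and 7 falls, beside 27.8% of all members. LAPTM4B, a small membrane protein of late endosomes, was below 1 FPKM in every library, at 0.152, 0.108 and 0.208 FPKM in the libraries labelled YAP, against 0.641, 0.393 and 0.628 FPKM in the control libraries.

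Of the V-ATPase subunits, ATP6AP1, ATP6V0A1 and ATP6V0B fell and 0 of 8 tested rose in the deposited FPKM. That is 37.5% called, beside 35.9% of all tested genes (23% lower), so that the share is near that of other genes. The median log2 change was -0.22, and 2 of them fell after median-of-ratios scaling, beside 14% lower of all tested genes. ATP6AP1, an accessory subunit that guides assembly of the pump, had 48.8, 49.7 and 49.5 FPKM in the libraries labelled YAP, against 65.3, 58.4 and 59.9 FPKM in the control libraries (log2 change -0.30, SE 0.075, adjusted p = 0.0086). ATP6V0A1, a membrane subunit through which protons pass, had 10.3, 10.1 and 10.4 FPKM in the libraries labelled YAP, against 14.0, 11.9 and 13.7 FPKM in the control libraries (log2 change -0.33, SE 0.087, adjusted p = 0.012). ATP6V0B, a subunit of the rotating membrane ring, had 56.0, 61.5 and 52.5 FPKM in the libraries labelled YAP, against 75.6, 69.1 and 62.0 FPKM in the control libraries (log2 change -0.28, SE 0.093, adjusted p = 0.037), and was the one lost after median-of-ratios scaling (adjusted p = 0.15). None of these overlapped between groups. The most abundant subunit, ATP6V0D1, had 191, 208 and 185 FPKM in the libraries labelled YAP, against 184, 189 and 171 FPKM in the control libraries and did not pass (log2 change 0.10, SE 0.079, adjusted p = 0.33), although it was higher after quantile normalization (adjusted p = 0.013), where the group held 1 rise and 2 falls. The 5 tested subunits that did not pass had log2 changes from -0.31 (ATP6V0C) to 0.10 (ATP6V0D1). ATP6V0A4 and ATP6V0D2 were not tested. With a lower filter of 0.1 FPKM the group held 1 rise and 3 falls, and with no filter 1 rise and 2 falls. Without YAP replicate 1 limma called 0 of 8 at the adjusted threshold, with adjusted p = 0.057 for ATP6AP1 and 0.057 for ATP6V0A1. The call of ATP6V0B was lost without YAP replicates 1 or 3 or control replicates 1 or 2 (adjusted p = 0.076 to 0.13). LOC106502862, described as a further V-ATPase subunit S1, fell in the deposited FPKM (log2 change -0.27, SE 0.093, adjusted p = 0.040) and kept its call in 4 of 13 alternative fits. The call of LOC106502862 was lost without YAP replicates 1 or 3 or control replicates 1, 2 or 3 (adjusted p = 0.057 to 0.17). The V-ATPase subunits that the annotation does not place in the pathway, mostly those of the cytosolic part, were 11 tested genes, of which 0 rose and 4 fell (36.4% called, beside 35.9% of all tested genes). Of these, 1 fell after median-of-ratios scaling or without YAP replicate 1, and 2 without control replicate 3. ATP6V1C1, which links the stator to the catalytic head, had 10.1, 9.39 and 10.7 FPKM in the libraries labelled YAP, against 14.5, 15.3 and 17.3 FPKM in the control libraries and fell (log2 change -0.59, SE 0.092, adjusted p = 0.00054). ATP6V1F fell (log2 change -0.30, SE 0.084, adjusted p = 0.017), as did ATP6AP2, the renin receptor (log2 change -0.28, SE 0.078, adjusted p = 0.018), with adjusted p = 0.090 for ATP6V1F and 0.090 for ATP6AP2 after that scaling. The call of ATP6V1F was lost without YAP replicates 1 or 3 or control replicate 1 (adjusted p = 0.057 to 0.089). The call of ATP6AP2 was lost without YAP replicate 1 or control replicate 3 (adjusted p = 0.053 to 0.079).

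**Figure D4:**
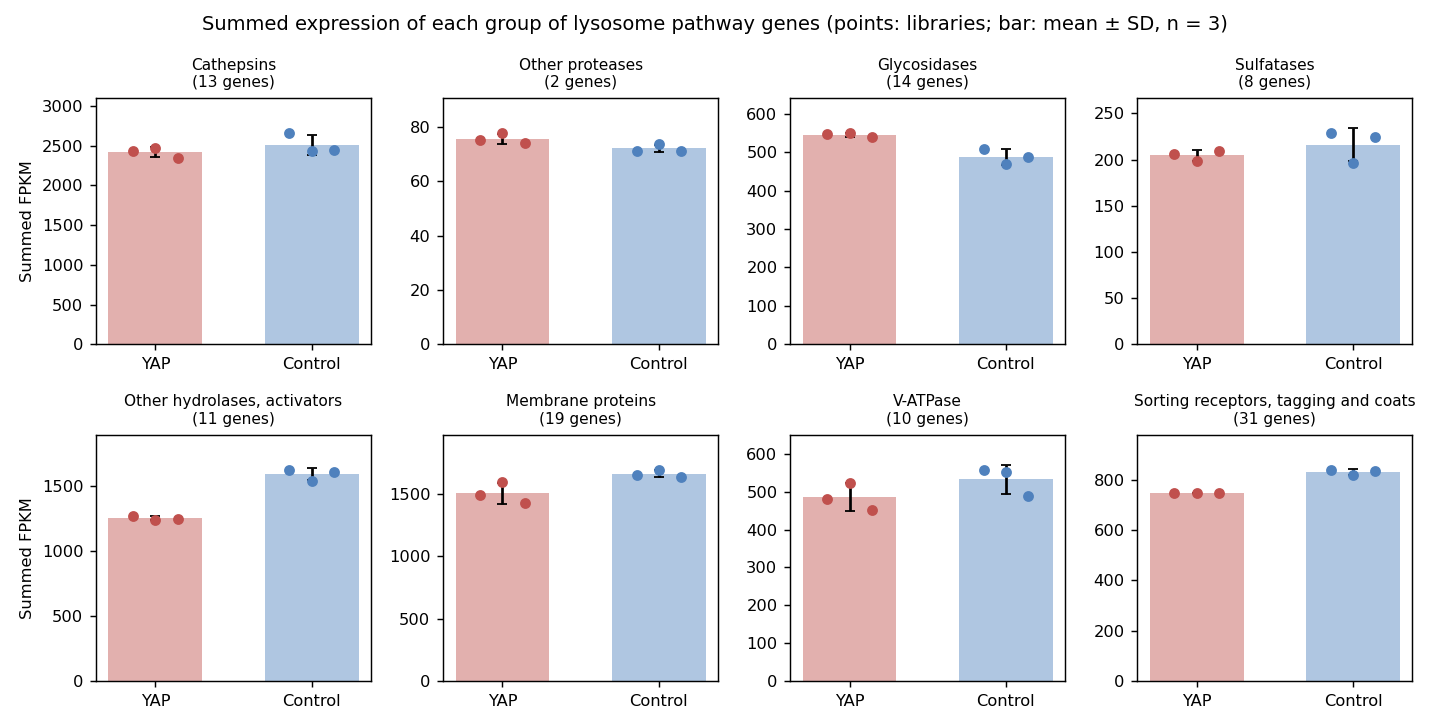
Summed FPKM of the members of 8 role groups (all but the locus-numbered members) in the libraries labelled YAP (left bars) and the control libraries (right bars); points are libraries, and bars with whiskers are the mean ± SD of 3. The sums do not overlap between YAP-labelled and control libraries for other proteases, glycosidases, other hydrolases (which hold GM2A), membrane proteins and the sorting group. In the sorting group they are 748 ± 1.01 FPKM in the libraries labelled YAP and 831 ± 10.5 FPKM in the control libraries. The sums of cathepsins, the sulfatase group and V-ATPase subunits overlap.

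Genes that tag and sort lysosomal enzymes held 2 rises and 8 falls among 28 tested members (35.7% called, near the 35.9% of all tested genes). Median-of-ratios scaling gave 3 rises and 5 falls, beside 15.8% higher and 14% lower of all tested genes. On the tagging side, GNPTAB encodes the catalytic part of the phosphotransferase that builds the mannose 6-phosphate signal. It had 11.5, 9.44 and 12.4 FPKM in the libraries labelled YAP, against 15.8, 14.3 and 18.5 FPKM in the control libraries and fell (log2 change -0.51, SE 0.12, adjusted p = 0.0059). NAGPA, the enzyme that uncovers the signal, had 6.21, 7.11 and 6.23 FPKM in the libraries labelled YAP, against 10.6, 8.40 and 7.60 FPKM in the control libraries and fell (log2 change -0.38, SE 0.12, adjusted p = 0.023), with adjusted p = 0.064 after that scaling. Values of neither gene overlapped between the groups. The call of NAGPA was lost without YAP replicates 1 or 3 or control replicate 1 (adjusted p = 0.060 to 0.092). Of the receptors that read the signal, M6PR, the cation-dependent one, had 45.5, 46.1 and 45.1 FPKM in the libraries labelled YAP, against 60.4, 55.3 and 59.3 FPKM in the control libraries and fell (log2 change -0.35, SE 0.073, adjusted p = 0.0036). IGF2R, the cation-independent one, which also binds IGF2, had 31.5, 26.7 and 34.4 FPKM in the libraries labelled YAP, against 26.2, 23.2 and 29.0 FPKM in the control libraries and did not pass (log2 change 0.23, SE 0.11, adjusted p = 0.12), whereas it was higher after median-of-ratios scaling (adjusted p = 0.046) and without YAP replicate 2 (adjusted p = 0.032). The ratio of IGF2R to M6PR in FPKM was 0.691, 0.578 and 0.763 in the libraries labelled YAP, against 0.434, 0.420 and 0.488 in the control libraries. SORT1, sortilin, a receptor that sorts some enzymes without that signal, had 4.84, 3.71 and 4.53 FPKM in the libraries labelled YAP, against 2.02, 3.14 and 3.03 FPKM in the control libraries and rose (log2 change 0.53, SE 0.13, adjusted p = 0.0095). SORT1 was highest in YAP replicate 1 and lowest in control replicate 1, and the groups did not overlap.

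Among the coats, falls were found in the AP-1 adaptor, which loads clathrin vesicles at the Golgi and endosomes, and in AP-4, an adaptor without clathrin. AP1B1, the large beta subunit of AP-1, had 25.0, 27.2 and 24.5 FPKM in the libraries labelled YAP, against 37.2, 33.6 and 31.5 FPKM in the control libraries and fell (log2 change -0.40, SE 0.086, adjusted p = 0.0041). AP1S2, a small subunit, had 11.9, 12.3 and 12.6 FPKM in the libraries labelled YAP, against 15.6, 16.8 and 20.5 FPKM in the control libraries and fell (log2 change -0.48, SE 0.10, adjusted p = 0.0038). The medium subunit AP1M1 fell by less (log2 change -0.24, SE 0.077, adjusted p = 0.032), with adjusted p = 0.16 after median-of-ratios scaling. AP4S1, the small subunit of AP-4, had 1.18, 1.57 and 1.08 FPKM in the libraries labelled YAP, against 2.34, 2.58 and 2.17 FPKM in the control libraries, a 1.85-fold lower mean (log2 change -0.57, SE 0.10, adjusted p = 0.0017). AP4M1 fell as well (log2 change -0.33, SE 0.098, adjusted p = 0.023), with adjusted p = 0.080 after that scaling. The call of AP1M1 was lost without YAP replicates 1, 2 or 3 or control replicate 1 (adjusted p = 0.069 to 0.12). The call of AP4M1 was lost without YAP replicates 1 or 3 or control replicates 1 or 2 (adjusted p = 0.063 to 0.079). Falls in the sorting group numbered 5 without YAP replicate 1 or control replicate 1. The AP-3 adaptor, which serves transport of membrane proteins to the lysosome, gave no call among its tested subunits, with LOC102191560, described as its sigma-2 subunit, at 29.1 ± 0.133 FPKM against 28.8 ± 0.806 FPKM (libraries labelled YAP against control). Over all 6 libraries the most abundant gene of the sorting group was AP1S1, at 95.8 ± 6.89 FPKM in the libraries labelled YAP and 114 ± 9.52 FPKM in the control libraries (adjusted p = 0.0504, above the threshold of 0.05). The 18 tested genes of the group that did not pass had log2 changes from -0.32 (CLTC) to 0.25 (CLTB). AP1M2, AP3B2 and AP3M2 were not tested. LITAF, a membrane protein of late endosomes that is induced by lipopolysaccharide, was the second rise of the group, with 33.5, 30.0 and 32.4 FPKM in the libraries labelled YAP, against 20.0, 15.8 and 20.5 FPKM in the control libraries, a 1.70-fold higher mean (log2 change 0.75, SE 0.10, adjusted p = 0.00024). Every library labelled YAP was above every control library for LITAF.

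**Figure D5:**
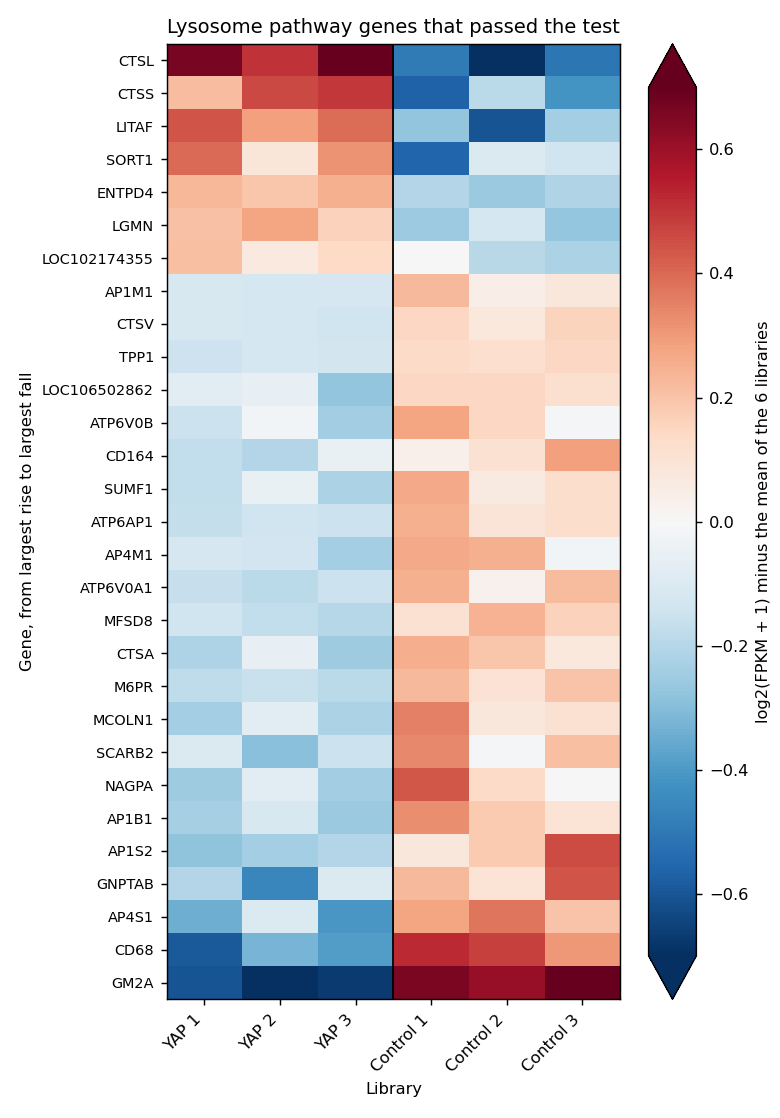
Log2(FPKM + 1) of 29 members that passed the test, minus the mean of the 6 libraries, with the 3 libraries labelled YAP at the left and the 3 control libraries at the right; the colour scale ends at 0.7, beyond which values share the end colour. Rows run from the largest rise (CTSL, 1.26) to the largest fall (GM2A, -1.33), with 7 rises and 22 falls shown.

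Of the 7 members known only by a locus number, 6 were tested, 2 rose and 1 fell (50% called, beside 35.9% of all tested genes). The calls numbered 1 without YAP replicate 1 or 3 or without control replicate 2 or 3. Besides those given above, LOC102190297 had 2.22 ± 0.525 FPKM against 2.15 ± 0.487 FPKM (libraries labelled YAP against control; adjusted p = 0.90). LOC108637177, described as similar to ABCA2, a lipid transporter, had 7.09 ± 0.800 FPKM against 7.95 ± 1.14 FPKM (adjusted p = 0.35).

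Regulators of lysosomal genes and of nutrient sensing at the lysosome were taken from a list outside the annotation. Of 17 tested, 0 rose and 6 fell (35.3% called, near the 35.9% of all tested genes). Median-of-ratios scaling gave 2 rises and 3 falls, beside 15.8% higher and 14% lower of all tested genes. Calls numbered 3 without YAP replicate 1 or 3. The transcription factor genes, named here after their values were seen, did not pass in the deposited FPKM. TFEB had 3.81, 6.06 and 4.68 FPKM in the libraries labelled YAP, against 4.84, 3.74 and 3.80 FPKM in the control libraries (log2 change 0.18, SE 0.14, adjusted p = 0.34), and TFE3 had 40.8, 42.9 and 37.9 FPKM in the libraries labelled YAP, against 35.4, 34.3 and 35.6 FPKM in the control libraries (log2 change 0.20, SE 0.077, adjusted p = 0.060), without overlap for TFE3, which was higher after median-of-ratios scaling (adjusted p = 0.017). Of the Rag GTPases, which recruit mTORC1 to the lysosome, RRAGA and RRAGC fell, whereas RRAGB (log2 change 0.17, SE 0.12, adjusted p = 0.29) and RRAGD (log2 change -0.042, SE 0.11, adjusted p = 0.78) did not pass. RRAGA had 46.2, 46.4 and 44.1 FPKM in the libraries labelled YAP, against 58.1, 60.0 and 60.0 FPKM in the control libraries (log2 change -0.37, SE 0.071, adjusted p = 0.0020), and RRAGC had 21.9, 21.6 and 23.1 FPKM in the libraries labelled YAP, against 29.8, 28.2 and 31.8 FPKM in the control libraries (log2 change -0.41, SE 0.079, adjusted p = 0.0021). FNIP1, a partner of folliculin that acts on RagC, had 6.41, 6.11 and 6.89 FPKM in the libraries labelled YAP, against 9.06, 8.92 and 11.9 FPKM in the control libraries and fell (log2 change -0.55, SE 0.11, adjusted p = 0.0032). None of these 3 overlapped between the groups, and each kept its call without any single library. Of the cystatins, inhibitors of cathepsins, 3 were in the tables and 1 was tested: CST6 had 2.04, 3.24 and 1.70 FPKM in the libraries labelled YAP, against 2.48, 3.02 and 2.19 FPKM in the control libraries and did not pass (log2 change -0.12, SE 0.15, adjusted p = 0.57).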

How the data were processed

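Per the submitters' processing notes, the tools were fastp, HISAT2 and HTSeq, without versions or settings. No source used here states the build, the annotation, the strand setting or how reads shared by several genes were treated. TRIzol was used for total RNA and the VAHTS Universal V6 kit for libraries, per the labels' protocols. The authors deposited FPKM values in a table per group. The table with the libraries labelled YAP held 6 further per-sample columns, named TAZ and pcDNA, which match no sample label used here. They were not used, so whether the control columns are those of a pcDNA vector control was not tested.

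Whole reads were recovered from the steps between FPKM values (100.0% of 87460 values above 0 were whole within 0.05 reads), which gave the library totals. Total fragments per library are those implied by these steps. Members of low FPKM rest on few reads, and their numbers are given where this limits precision.

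A gene was tested when 3 or more libraries reached 1 FPKM. Values were tested as log2(FPKM + 1), a pseudocount of 1, with limma 3.58.1 in R 4.3.3 (lmFit, eBayes with trend), two-sided, with Benjamini-Hochberg adjustment over all tested genes and a threshold of 0.05. Log2 changes are on that scale, which understates changes of low genes. Means are ± SD with n = 3 per group, and values per library are in the order of replicates 1 to 3. The fit was tested on simulated data. No sequence or coordinate is given, since no genome of the files' build was at hand. The alternatives were a pseudocount of 0.1, no filter, a lower filter of 0.1 FPKM, scaling by median of ratios, quantile normalization, limma-voom on the recovered reads, the replicate number as a block, and leaving out each library.

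The members and role lists were chosen with earlier results of these data known. Values per library were given for those with the smallest adjusted p in each list (4 or fewer, all called), the most abundant member of each list and 8 defining genes; for the lists outside the annotation, up to 3 called genes, or the most abundant. Some members enter the counts and sums but are not reported singly here. Other genes are named for their level, as untested, or where a scaling changed the call, which was decided with their values in view.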

Additional observations from a re-analysis of the deposited data

How the results depend on the processing

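Of 751 refits of 58 named genes, 634 kept direction and side of the threshold, 70 lost the call, 36 gained one and 11 changed sign, all 11 in genes not called. Without control replicate 3 the sign changed in CTSD (-0.018), LAMP2 (0.022) and LOC102191560 (-0.0053), without control replicate 2 in CTSK (-0.050) and without YAP replicate 3 in CST6 (0.019). Over all single libraries left out, the log2 change ran from -0.018 to 0.13 in CTSD, -0.050 to 0.083 in CTSK, -0.074 to 0.022 in LAMP2, -0.0053 to 0.033 in LOC102191560 and -0.31 to 0.019 in CST6. LAMP1 (0.011), LAMP2 (0.046) and LAPTM4A (0.031) changed sign after median-of-ratios scaling, and LAMP1 (0.0015), LAMP2 (0.041) and LAPTM4A (0.030) after quantile normalization. Without 1 library the log2 change of YAP1 ran from -0.028 to 0.054, the counts over all genes from 2290 to 3515 (909 to 1326 higher, 1381 to 2189 lower), and those of members from 17 to 33 (7 to 10 higher, 10 to 24 lower). Cathepsins called ran from 1 to 4 and V-ATPase subunits from 0 to 4, in each case lowest without YAP replicate 1. Over all genes, 1507 were lower after median-of-ratios scaling. Among members, 16 were higher and 13 lower after that scaling, with a median log2 change of 0.0081, and 17 higher and 15 lower after quantile normalization, with a median of -0.031. Glycosidase calls numbered 6 of 14 tested under each of these, beside 29.8% and 33% of all tested genes in the same order. The cause was not tested.

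The main fit did not pair libraries by replicate number. Same-numbered libraries correlated at -0.02, 0.59 and 0.60 in their deviations from the group means. YAP replicate 2 with control replicate 3 gave -0.62, and YAP replicate 3 with control replicate 2 gave -0.56. Deviations within a group of 3 sum to 0, so these correlations are not independent of one another. They show mainly that the difference between replicates 2 and 3 was shared by number. Whether replicate 1 was paired cannot be read from them, and the source of the shared difference was not tested. With the replicate block, 5573 of all 10761 tested genes were called, 1828 higher and 3745 lower. Beside this, 53 of 104 tested members (51.0%) were called, 18 higher and 35 lower. Among them were 6 of 14 tested glycosidases and 5 of 8 tested V-ATPase subunits.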
